A study of Rattus norvegicus with 38 samples.

Results

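The regions described here are distal intergenic H3K27ac peaks, outside genes and their promoters, that were called as differing between rotenone-exposed and vehicle rats. They are the rows annotated Distal Intergenic in the study's published lists of hyperacetylated and hypoacetylated peaks, each matched by chromosome, start and end to the deposited peak list of its brain region. There are 5774 such members among 151509 peaks in all. The substantia nigra (SN) has 305 hyperacetylated and 699 hypoacetylated members, and the motor cortex has 1531 and 3239. Members were thus chosen by the fold change and false discovery rate of rotenone against vehicle in the study's own test, so their direction is a description and not a finding. Those fold changes were not used here, and neither were peaks just outside the threshold.

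Male Lewis rats aged 8 to 10 months received rotenone, an inhibitor of mitochondrial complex I used to model Parkinson's disease, at 2.8 mg/kg by daily intraperitoneal injection for 21 days, or vehicle. Tissue was taken 24 h after the last dose from 5 rotenone and 4 vehicle rats, with both regions dissected from each brain. The labels call the control PBS, the protocol text names Miglyol and the methods name DMSO with Miglyol, and the tissues are labelled ventral midbrain and cortex. The 34 ChIP runs include repeat sequencing lanes of most samples, and all 4 input runs are labelled cortex. Each deposited list was made from reads pooled over all animals, rotenone and vehicle together, so no value per rat, depth or error between rats can be given, and the results are counts, shares and widths with no test. Intervals given below are 95% Wilson intervals that cover counting error only and treat neighbouring peaks as independent. The study states that its motor cortex libraries held more reads than its SN libraries, and the part of depth in any difference between the regions was not tested.

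Acetylation of lysine 27 on histone H3 marks active promoters and enhancers. Enhancers lie at a distance from the genes they act on, bind transcription factors and differ much more between cell types than promoters do. In brain tissue, distal acetylated sites therefore carry much of the signal that separates neurons, astrocytes, oligodendrocytes, microglia and vascular cells. A member is named here by the nearest gene the study gave it, which does not show that the gene is its target. Of the 5774 members, 5568 (96.4%) carried a gene name found in the RefSeq gene table of GRCr8. The other 206 are not named. All positions are in mRatBN7.2, counted from 1.

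Some distal members lay nearest to microRNA genes, whose mature RNAs are short enough to show. The 47 microRNA genes with a member had 135 members between them, and 40 of the 47 were found in the RefSeq table of GRCr8. The mature RNAs printed are those of the matched genes with the most members, with both arms for Mir29b1, the gene that leads the hyperacetylated SN members. Capitals mark the seed, bases 2 to 8, which pairs with target messenger RNAs.
rno-miR-29b-3p: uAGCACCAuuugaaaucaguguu
rno-miR-29b-1-5p: uUUCAUAUggugguuuagauuu
rno-miR-3473: uCUAGGGCuggagagauggcua
rno-miR-2985: uGUUAUAGuaucccaccuaccc
rno-miR-135a-5p: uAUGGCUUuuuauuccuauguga
rno-miR-297: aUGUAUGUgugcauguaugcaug
No seed is shared among these 6. Across all matched genes, Mir181a-1, Mir181a2 and Mir181c shared a 5p seed, Mir181a-1 and Mir181c also shared a 3p seed, and Mir28 and Mir708 shared a 5p seed. Mir9-2 and Mir9-3 shared the seeds of both arms, as did Mir344b-2 and Mir344b-3. Mir29b1 had 7 hyperacetylated members in the SN, and 1 hyperacetylated and 1 hypoacetylated member in the motor cortex. Mir3473 had 10 members, Mir2985 had 8 and Mir135a had 7, all of them hypoacetylated in the motor cortex. Mir297 had 4 hyperacetylated and 1 hypoacetylated member in the SN and 1 of each in the motor cortex.

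Distal intergenic peaks made up a larger part of the hypoacetylated than of the hyperacetylated peaks in both regions. In the SN they were 57.5% of the hypoacetylated peaks (699 of 1216, interval 54.7% to 60.2%) and 34.9% of the hyperacetylated ones (305 of 874, interval 31.8% to 38.1%). In the motor cortex the shares were 62.1% (3239 of 5212) and 38.1% (1531 of 4015). Promoter peaks showed the reverse, with 8.31% of hypoacetylated and 31.6% of hyperacetylated SN peaks, and 8.00% and 15.4% in the motor cortex. Seen by annotation, 69.6% of the distal peaks called in the SN were hypoacetylated, against 26.8% of promoter peaks and 60.2% of intronic peaks. The corresponding shares in the motor cortex were 67.9%, 40.2% and 48.9%. As background, peaks of any annotation called hyperacetylated were 1.24% of the SN list and 4.97% of the motor cortex list, and hypoacetylated peaks were 1.72% and 6.45%. The distal members alone were 0.431% and 0.988% of the SN list and 1.90% and 4.01% of the motor cortex list. The SN list holds more peaks than the study describes testing, so its shares have a wider denominator than the calls. The annotation of peaks that were not called is not used here, so the share of distal peaks in the whole lists is unknown.

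**Figure D1:**
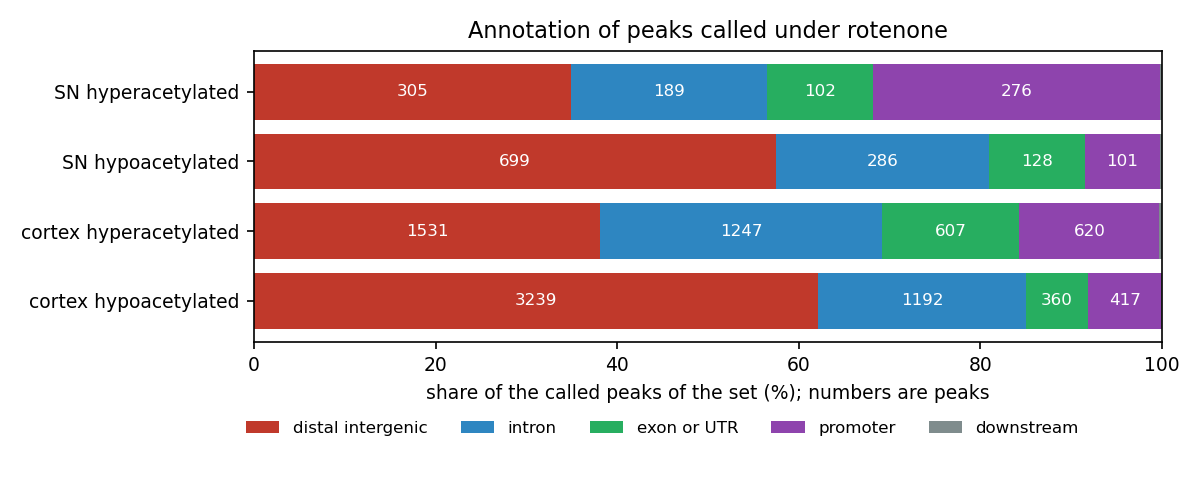
Share of called peaks (%, x axis) by annotation class in each set (rows), with the number of peaks printed in each block. Distal intergenic peaks take 57.5% and 62.1% of the hypoacetylated sets and 34.9% and 38.1% of the hyperacetylated sets.

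Distal members had higher median widths than the peaks of their region that were not called. Their median width was 2107 bp for hyperacetylated and 1775 bp for hypoacetylated SN members, beside 969 bp for SN peaks that were not called. The median of the hyperacetylated members exceeded the width of 81.1% of the SN list. The SN peaks not called may include peaks that never entered the study's test, so the 969 bp, like the other values given below for SN peaks not called, describe the deposited list and not the tested peaks. In the motor cortex the medians were 1384 and 1530 bp, beside 1199 bp for peaks not called. Called promoter peaks were wider in each set, with medians from 1997 to 3080 bp, and intronic peaks ran from 1605 to 2321 bp. The narrowest distal members measured 713 bp among hyperacetylated SN peaks and 193 bp among hypoacetylated ones. A width of 5 kb or more was reached by 28 and 57 SN members and by 73 and 191 motor cortex members, in the same order. Wider peaks collect more reads, and the part of read number in the calls was not tested.

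**Figure D2:**
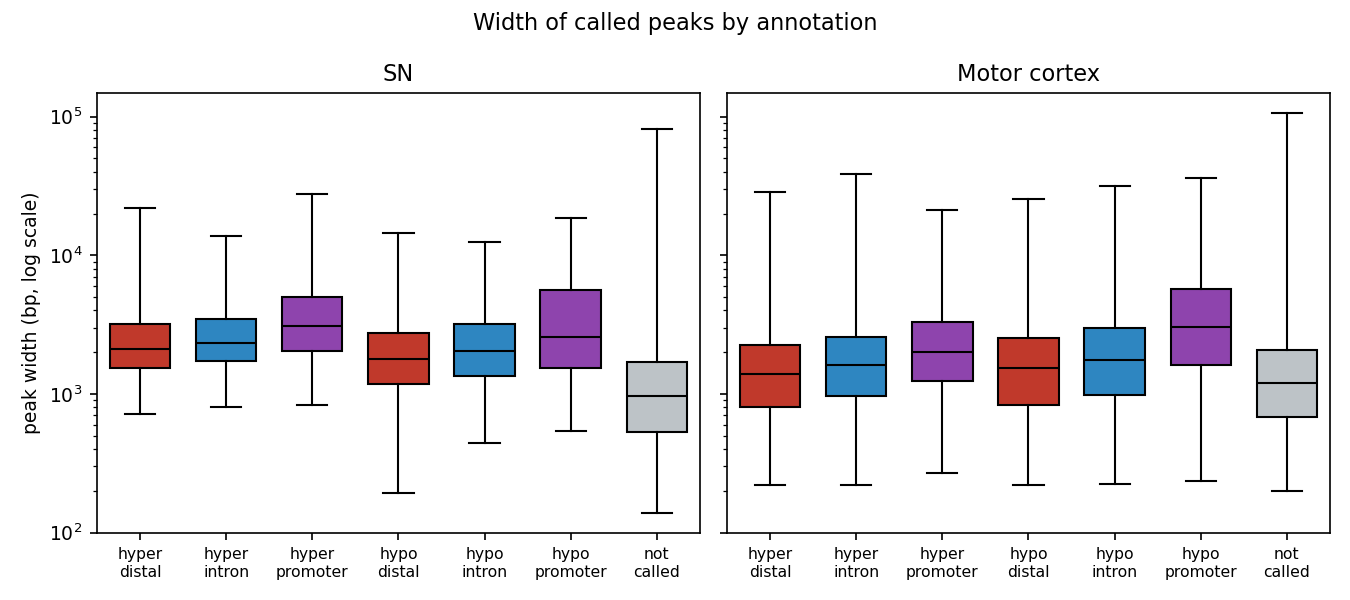
Peak width (bp, log scale) by direction and annotation in the SN and motor cortex. Boxes span the quartiles with the median as a line, and whiskers reach the narrowest and widest peak. Distal medians lie between 1384 and 2107 bp, below the promoter median of the same set and above the medians of peaks not called (969 and 1199 bp).

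The widest members were single long domains. In the SN the hyperacetylated ones were assigned to C3h9orf50 (21966 bp, chr3:13982255-14004220), Utf1 (21886 bp, chr1:194687434-194709319) and Kcna5, a voltage-gated potassium channel gene (16571 bp, chr4:159398972-159415542). The widest hyperacetylated motor cortex member was also at Kcna5 (28750 bp, chr4:159399171-159427920), and the pair overlapped, so this domain was called higher in both regions. The domains at C3h9orf50 and Utf1 overlapped motor cortex peaks that were not called. The next motor cortex members were at Slc41a3 (14775 bp) and Agap1 (13833 bp). Among hypoacetylated members, LOC500959 held the widest SN peak (14444 bp, chr8:23675589-23690032) inside the second widest of the motor cortex (23723 bp, chr8:23667128-23690850). Septin7 (14121 bp) and Dtnbp1 (12304 bp) followed in the SN, and each overlapped a hypoacetylated motor cortex peak. The widest hypoacetylated motor cortex member, at Lingo1, which encodes a neuronal receptor subunit that restrains myelination, spanned 25663 bp (chr8:57065158-57090820) with no SN peak in it. The third widest, at Celf1 (21302 bp), overlapped 6 SN peaks, none of them called.

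Hyperacetylated SN members were mostly sites with a peak in both regions. A motor cortex peak overlapped 269 of the 305 hyperacetylated SN members (88.2%, interval 84.1% to 91.4%) and 475 of the 699 hypoacetylated ones (68.0%, interval 64.4% to 71.3%). In SN peaks that were not called the share was 64.8%. An SN peak overlapped 1007 of the 1531 hyperacetylated motor cortex members (65.8%) and 1641 of the 3239 hypoacetylated ones (50.7%, interval 48.9% to 52.4%), beside 54.2% of peaks not called. Overlaps with SN peaks, here and below, count any peak of the deposited SN list, which holds more peaks than the study describes testing. Promoter peaks overlapped a peak of the other region in 83.7% to 96.0% of cases, and hypoacetylated intronic peaks in 81.1% (SN) and 55.6% (motor cortex). Overlap moved with width. Members with an overlapping peak had a median width of 2254 bp and those without one 1386.5 bp among hyperacetylated SN members, and 1889 and 1234.5 bp among hypoacetylated motor cortex members.

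**Figure D3:**
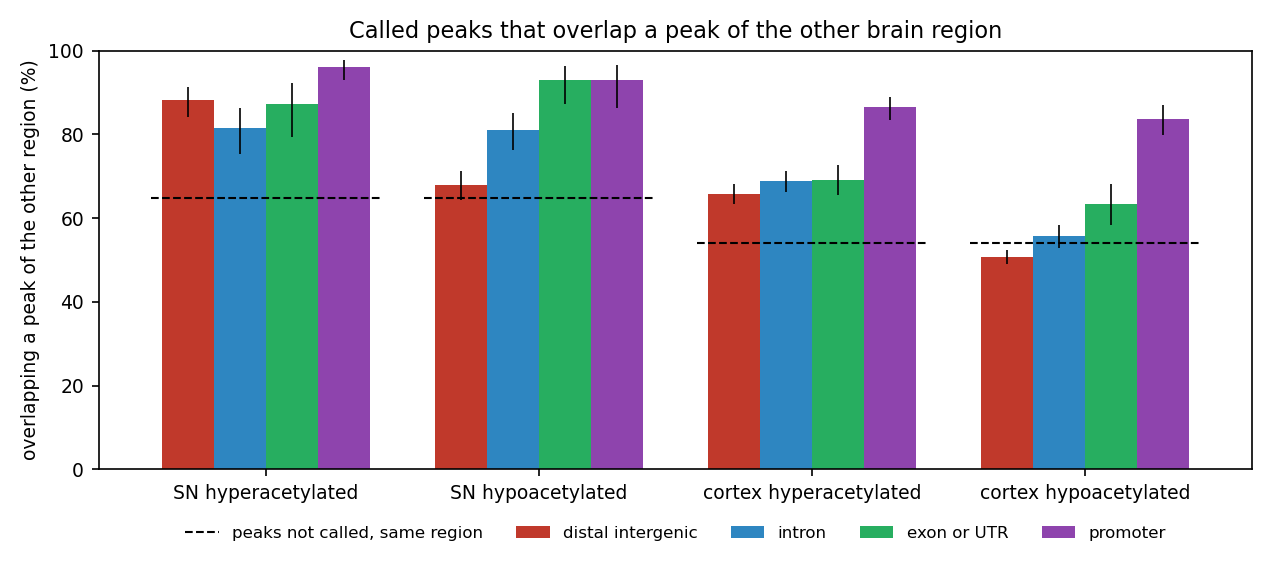
Share of called peaks (%, y axis) that overlap a peak of the other region by at least 1 bp, by set and annotation. Bars carry 95% Wilson intervals for counting error, and the dashed line is the share in peaks of that region that were not called (64.8% in the SN, 54.2% in the motor cortex). Distal bars run from 50.7% to 88.2%.

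Members without an overlapping peak differed in how far away the other region's nearest peak was. The 36 such hyperacetylated SN members lay a median of 3375.5 bp from the nearest motor cortex peak. For the 224 hypoacetylated SN members the median distance was 92551 bp, with 185720 bp in the crowded windows described below and 48032.5 bp outside them. It was 18637.5 bp for the 524 hyperacetylated and 45108.5 bp for the 1598 hypoacetylated motor cortex members. In peaks not called these medians were 3627.5 bp (SN) and 15019 bp (motor cortex). The hypoacetylated members without overlap were thus farther from the other region's peaks than peaks not called, of any annotation, were, in median. Hypoacetylated intronic peaks without overlap were also farther, with 10733 bp (SN) and 20781 bp (motor cortex). Hypoacetylated promoter peaks were nearer, with 1077 and 7347 bp.

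Where a distal SN member overlapped a called motor cortex peak, the direction was nearly always shared. There were 396 such pairs, from 366 SN and 391 motor cortex peaks. Of these, 94 were hyperacetylated and 294 hypoacetylated on both sides, so 388 (98.0%, interval 96.1% to 99.0%) had the same direction, beside 103 of 110 pairs with an SN promoter peak (93.6%) and 163 of 164 with an SN intronic peak (99.4%). The motor cortex peak was itself distal in 393 pairs. The study reports a lower share with the same direction for its peaks of any annotation that were significant in both regions. Why the shares differ was not tested. The same animals gave both tissues, and a pair is not 2 separate observations of the exposure. Among SN members with any counterpart in the motor cortex, the counterpart was also hypoacetylated for 56.2% of the 475 hypoacetylated members and also hyperacetylated for 33.8% of the 269 hyperacetylated ones. For hypoacetylated SN peaks at promoters, introns and exons or UTRs the shares were 29.8%, 44.0% and 42.0%. For hyperacetylated ones they were 24.9%, 32.5% and 36.0%, so the distal value of 33.8% lay within the range of the other classes. In the pairs of distal members with one direction, median widths were 2493 bp (SN) and 2242 bp (motor cortex) for hyperacetylated and 2150 and 2082.5 bp for hypoacetylated pairs, and the motor cortex peak was the wider one in 45.2% and 41.4% of them.

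Zfp608, a zinc finger protein gene, had more of the shared hypoacetylated pairs than any other gene. Its 6 hypoacetylated SN members lay between 47970504 and 48992663 on chromosome 18, with widths from 2241 to 5266 bp. Each overlapped a hypoacetylated motor cortex member. The motor cortex had 14 members there, and SN peaks overlapped all 14. Hs3st1 and Ust, which encode sulfotransferases, had 4 such pairs each. Among hyperacetylated pairs, Armc12 and Klf13 led with 3 each. The 3 Armc12 members of the SN (chr20:6569838-6572393, chr20:6572964-6577068 and chr20:6580565-6582743) lay under 2 motor cortex members of 9983 and 4778 bp. In GRCr8, the gene next to Armc12 is Fkbp5, a glucocorticoid-induced regulator of the glucocorticoid receptor. Klf13, a Krüppel-like transcription factor gene, had 3 SN and 10 motor cortex members, all hyperacetylated.

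The 8 pairs with opposite directions were few, and in 6 of them the SN peak was the hyperacetylated one. These lay at Dusp1, a phosphatase gene for MAP kinases, Ier5, an early response gene, Dlg1, a synaptic scaffold gene, Tacc1, Pif1 and Mir29b1. At Dusp1 the SN peak of 1405 bp (chr10:16610118-16611522) lay inside a hypoacetylated motor cortex peak of 6159 bp. At Ier5 an SN peak of 1805 bp (chr13:67258833-67260637) lay inside one of 6544 bp. The Dlg1 and Tacc1 SN peaks also lay wholly within the motor cortex peak, and the Pif1 peak did so over 98.3% of its width. At Mir29b1 it was the motor cortex peak (5385 bp) that lay inside the SN peak (6812 bp, chr4:59710675-59717486). The reverse order was seen at Fam104a, where the peaks nearly coincided (1594 bp shared of 1634 and 1679 bp), and at Rgma, where only 75 bp were shared. Whether the effect differed between regions was not tested at any of them.

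Some members stood in groups, but most clusters held a single peak. Joining members of one set across gaps of up to 50 kb gave 253 clusters of hyperacetylated SN members, of which 216 held a single peak. The hypoacetylated SN members formed 497 clusters with 425 single ones. In the motor cortex there were 1075 clusters (827 single) and 2162 clusters (1551 single). Clusters of 3 or more held 10.8% of the hyperacetylated and 26.0% of the hypoacetylated SN members, and 26.6% and 28.8% of the motor cortex members. When both directions of a region were joined together, 8 of 115 SN clusters with at least 2 members held both directions, and 125 of 926 in the motor cortex did. Neighbours therefore mostly went the same way. Within 50 kb, 41.1% of hypoacetylated SN members had another hypoacetylated peak of any annotation and 1.72% had a hyperacetylated one. For hyperacetylated SN members these shares were 36.4% (hyperacetylated) and 3.93% (hypoacetylated). In the motor cortex they were 54.5% same and 12.6% opposite for hyperacetylated, and 55.4% same and 7.44% opposite for hypoacetylated members. Called peaks of other annotations grouped as well. For intronic peaks the same-direction shares (hyperacetylated first) were 30.2% and 39.5% in the SN and 65.0% and 55.2% in the motor cortex. For promoter peaks they were 31.5% and 33.7%, and 60.8% and 45.3%. No listed peak of the same region stood within 10 kb of 15.1% and 26.8% of the hyperacetylated and hypoacetylated SN members, beside 18.3% of peaks not called, or of 18.5% and 23.6% of the motor cortex members, beside 20.1%.

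The largest hyperacetylated SN cluster lay at Mir29b1, the host locus of a microRNA that targets collagen transcripts. Its 6 members spanned chr4:59672169-59722198, measured 2882 to 7060 bp, and made up 6 of the 14 SN peaks there. All 6 overlapped motor cortex peaks, of which none was hyperacetylated and 1 was hypoacetylated. A further Mir29b1 member lay at chr4:59793597-59795916. Mir297 had 4 members (chr10:98130618-98196439), the widest of them 12460 bp. Cebpb, a transcription factor gene of the acute phase response, had 4 members of 1079 to 3112 bp (chr3:156459983-156486738), of which 3 overlapped motor cortex peaks, none of them called. A cluster at Kcna5 and Kcna1 also held 4, and 2 of the 3 motor cortex peaks in its span were hyperacetylated. The other genes with the most hyperacetylated SN members, 3 each, were Armc12, C3h9orf50, Klf13, Spring1 and Myc. The Myc members lay at chr7:93661942-93663558, chr7:93702854-93705007 and chr7:93758684-93759747.

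Part of the hypoacetylated SN members crowded into a few blocks. In 6 windows of 2 Mb there were 10 or more members, 134 in all (19.2%), and motor cortex peaks overlapped 4 of these 134 (2.99%). Outside these windows the overlap was 83.4% (471 of 565, interval 80.1% to 86.2%), beside 88.2% of the hyperacetylated members. Across the spans of the 6 windows the SN list held 400 peaks and the motor cortex list 36, of which 28 lay in the window at Adgre4, beside 66 SN peaks. The largest cluster was assigned to Rn18s, the gene for 18S ribosomal RNA, with 25 members at chr3:935956-1202932. Rn18s had 47 members in all, and no motor cortex peak overlapped any of them. Adgre4, an adhesion receptor gene of myeloid cells, had 18 members (chr9:9983290-10121793), and 1 overlapped a motor cortex peak. Adam6, which lies in the immunoglobulin heavy chain region, had 25, of which 17 formed one cluster (chr6:133334387-133451716). Dact2, a Wnt pathway inhibitor gene, and Vom2r9, a vomeronasal receptor gene, shared a cluster of 16 (chr1:55011964-55074021). Lzts1 had 14 (chr16:20206386-20310776) and Smok2a, a testis kinase gene, had 11 (chr1:53228011-53265240). Members were 23.4% to 57.9% of the SN peaks in these 6 clusters and in a second one at Rn18s. In GRCr8 the neighbours of Adgre4 include vomeronasal receptor genes, and those of Smok2a and Rn18s include further copies of the same kind. How reads were placed between near-identical copies is not described in the methods, and its part in these blocks was not tested.

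Long distances stood behind some gene names. The 5 hypoacetylated SN members assigned to Il6, which encodes the cytokine interleukin-6, were scattered over 3167 kb (chr4:524174-3691424), and no motor cortex peak overlapped them. The 4 hyperacetylated motor cortex members assigned to Il6 measured 578 to 864 bp, lay elsewhere in the same stretch, and none overlapped an SN peak. They are different sites that share a nearest gene, not 1 site with opposite directions.

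In the motor cortex, the hyperacetylated clusters with the most members lay where the SN also had peaks. The largest, at 6430548M08Rikl and Zdhhc7, held 17 members (chr19:48130883-48418783) among 56 motor cortex peaks and 66 SN peaks. The 2 Mb window around it held 36 members, the most of this set. Gins2, a replication factor gene nearby, had 8. Cldn5, which encodes the tight junction protein of brain endothelium, had 7 members of 728 to 3598 bp between 82230702 and 82290569 on chromosome 11. With 2 at Septin5 they were 9 of the 12 motor cortex peaks of their cluster. All 9 overlapped SN peaks, and none of the 13 SN peaks there was called. Uchl1, a neuronal ubiquitin hydrolase gene, had 9 members. Ttc7b and Klf9, a glucocorticoid-induced transcription factor gene, had 8 each, and the Klf9 members were narrow, from 506 to 1685 bp. A cluster of 7 at Ddit4, whose product restrains mTOR signalling, and Ascc1 included a peak of 13764 bp. Across the 12 windows with 10 or more hyperacetylated members, 80.3% of the 157 members overlapped an SN peak, against 64.1% elsewhere.

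Hypoacetylated motor cortex members, the largest set, filled more windows than any other set. There were 47 windows of 2 Mb with at least 10 members, holding 578 (17.8%, beside 19.2% for hypoacetylated SN members). SN peaks overlapped 43.1% of the 578 against 52.3% of members elsewhere. Some blocks had no SN counterpart. Celf2, which encodes a neuronal splicing regulator, had 38 members over 1303 kb of chromosome 17, with widths from 270 to 8942 bp, and no SN peak overlapped any. The window that holds them had 168 motor cortex peaks and 5 SN peaks. The largest cluster, at Sorbs2, an actin adaptor gene, and Tlr3, the receptor for double-stranded RNA, held 11 members (chr16:46644463-46735139) of 13 motor cortex peaks, and the SN had none there. A cluster of 8 at Mrpl46 and Ntrk3, the receptor gene for neurotrophin-3, likewise had no SN peak. None of the 8 Mir2985 members and 1 of the 10 Mir3473 members overlapped an SN peak. Other blocks were shared. All 14 Zfp608 members, 9 of 10 at Sall1 and 5 of 9 at Spry2, a feedback inhibitor gene of FGF signalling, overlapped SN peaks. Pdcd6ip, an ESCRT adaptor gene, had 14 members, of which 3 did. Cobl, Abcc12, Ccdc182, Dear and LOC691000 had 9 each.

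**Figure D4:**
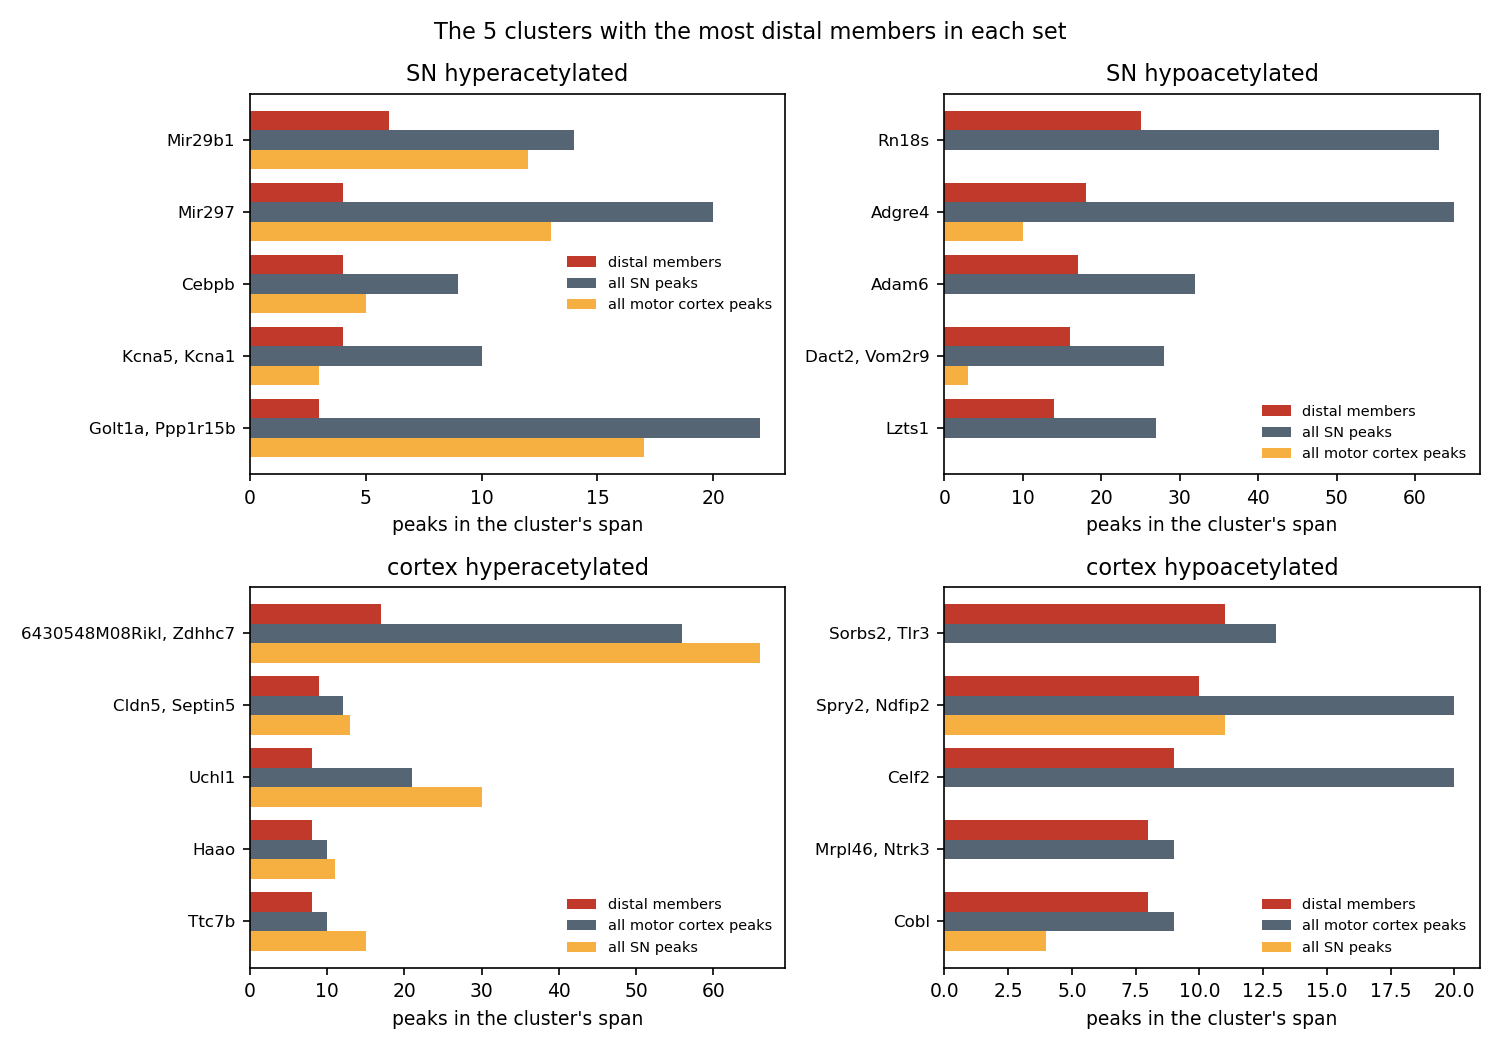
Numbers of peaks (x axis) in the spans of the 5 clusters with the most distal members in each set (rows, by assigned genes, ties ordered by position). Bars give the distal members, all peaks of the same region and all peaks of the other region. The hypoacetylated SN clusters at Rn18s, Adam6 and Lzts1 and the motor cortex clusters at Sorbs2, Celf2 and Mrpl46 hold no peak of the other region.

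Members were spread unevenly over chromosomes, in part through these blocks. On chromosome 3, 1.78% of SN peaks were hypoacetylated members, and 0.917% without the crowded windows. Chromosome 18 followed with 1.75%, none of it in crowded windows, and chromosome 10 had the lowest share of the autosomes (0.499%). Hyperacetylated motor cortex members were 3.48% of the peaks of chromosome 19, and 1.79% without crowded windows. Hypoacetylated motor cortex members ranged from 2.26% on chromosome 10 to 5.88% on chromosome 2. On the X chromosome 1 of 993 SN peaks was a hyperacetylated member, and 8 of 1242 motor cortex peaks were.

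Some genes had both a distal member and a called promoter peak. Of the 252 named genes with a hyperacetylated SN member, 23 (9.13%) also had a hyperacetylated promoter peak and 2 a hypoacetylated one. For hypoacetylated SN members it was 11 of 443 genes (2.48%) and 2 with a promoter in the opposite direction. In the motor cortex 102 of 1023 genes (9.97%) and 119 of 1662 genes (7.16%) had a promoter peak of the same direction, and 23 and 33 had one of the opposite direction. By position, a promoter peak of the same direction stood within 50 kb of 8.20% and 2.72% of the SN members and of 10.6% and 4.75% of the motor cortex members. For called intronic peaks these shares were 8.47% and 4.20% in the SN, and 11.7% and 6.54% in the motor cortex. Between regions, 131 genes had hyperacetylated members in both, 52.0% of the SN genes and 12.8% of the motor cortex genes. For hypoacetylated members it was 276 genes, 62.3% and 16.6%. Genes were also shared across directions: 67 had hyperacetylated SN and hypoacetylated motor cortex members (26.6% of the SN genes), and 73 had the reverse (16.5%). Genes with members of both directions in one region numbered 18 (SN) and 226 (motor cortex).

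Glul, the glutamine synthetase gene of astrocytes, had members in every set. In the SN 2 were hyperacetylated (1255 and 1076 bp) and 2 hypoacetylated (5143 and 2630 bp), and in the motor cortex 2 were hyperacetylated (1395 and 718 bp) and 6 hypoacetylated (1846 to 4944 bp). Both hypoacetylated SN members overlapped hypoacetylated motor cortex members (chr13:66118599-66123741 and chr13:66239822-66242451), while no hyperacetylated one met a called peak of the other region. Zfp36l1, which encodes an mRNA decay factor, and Mir297 were the other list genes with members in all 4 sets.

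The assigned genes were then read against 13 gene lists. The lists hold cell type markers, response genes and gene families, and were chosen with earlier results of these data known. They are described by counts beside the hypoacetylated share of all distal members, 69.6% for the SN and 67.9% for the motor cortex. In bulk tissue, fewer cells of a type and less acetylation per cell cannot be told apart. A check of the tissue labels by their own markers was not possible, since the lists hold no levels. Th, Slc6a3 and Slc18a2, which mark dopamine neurons, had no distal member.

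**Figure D5:**
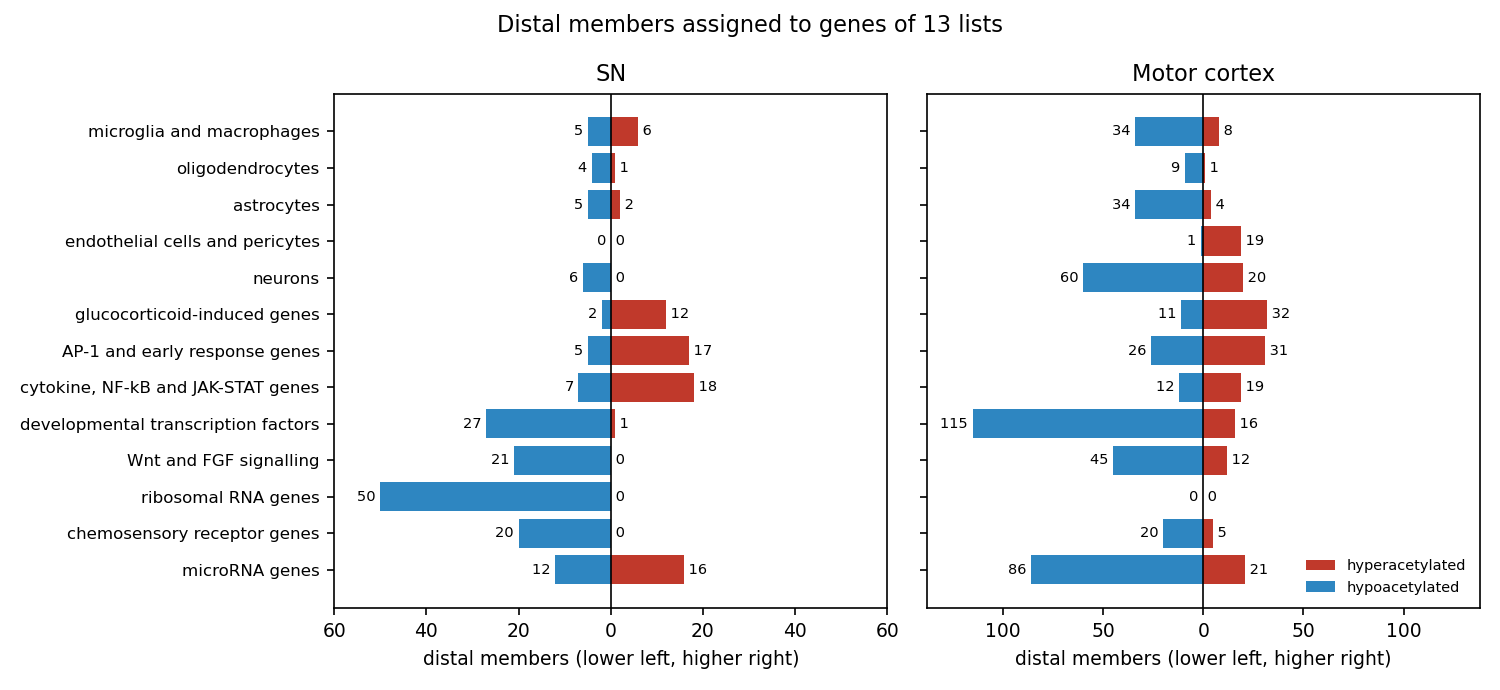
Number of distal members (x axis) assigned to genes of 13 lists (rows) in the SN and motor cortex, hypoacetylated to the left and hyperacetylated to the right. Glucocorticoid-induced genes lean to the right in both regions (12 and 32 hyperacetylated against 2 and 11), developmental transcription factors to the left (27 and 115 hypoacetylated against 1 and 16).

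Lists of inducible response genes held mostly hyperacetylated members in the SN, and more hyperacetylated than hypoacetylated ones in the motor cortex. They are not separate, since Cebpb and Nfkbia are in both the glucocorticoid and the cytokine list, and Dusp1 is in both the glucocorticoid and the early response list. Glucocorticoid-induced genes had 12 hyperacetylated and 2 hypoacetylated members in the SN (14.3% hypoacetylated) and 32 and 11 in the motor cortex (25.6%). Cebpb had the most SN members of this list, 4, all hyperacetylated. Sgk1, a kinase gene, had 1 SN and 4 motor cortex hyperacetylated members, Ddit4 had 1 and 4, and Dusp1 2 and 4, while Klf9 had its 8 in the motor cortex. Sgk1 and Dusp1 also had 1 hypoacetylated motor cortex member each. The hypoacetylated ones included 2 SN and 6 motor cortex members at Glul and 3 motor cortex members at Cables1. AP-1 and early response genes had 17 against 5 in the SN (22.7% hypoacetylated) and 31 against 26 in the motor cortex (45.6%). Hyperacetylated members stood at Fos (2 in each region), Gadd45g (2 in each) and Rhob (1 and 5), and Sik1 had 6 in the motor cortex, where Fos also had 2 hypoacetylated members and Rhob 1. Dusp6, an ERK phosphatase gene, went the other way with 1 SN and 6 motor cortex hypoacetylated members. Nr4a1, Egr3, Ier3 and Ier5 (2 each) and Egr2, Npas4, Atf3 and Btg2 (1 each) also had only hypoacetylated motor cortex members. Klf6 had 3 hypoacetylated and 1 hyperacetylated member there. Cytokine, NF-kB and JAK-STAT genes had 18 against 7 in the SN (28.0%) and 19 against 12 in the motor cortex (38.7%). Socs3, the feedback inhibitor of STAT3, had 2 SN and 1 motor cortex hyperacetylated members, Nfkbia, the NF-kB inhibitor, had 1 in each, Ptpn1 had 2 and 1, and Litaf 2 and 1. The 5 SN members at Il6, described above, made up most of the hypoacetylated SN ones. In the motor cortex, hypoacetylated members of this list stood at Il1b (3), Ifngr1 (3), Nfkb1 (2) and Nfkbiz (2), among others. Ifngr1 and Nfkbiz also had 1 hyperacetylated member each there.

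The list of developmental transcription factors had mostly hypoacetylated members. Its genes had 27 hypoacetylated and 1 hyperacetylated member in the SN (96.4% hypoacetylated) and 115 and 16 in the motor cortex (87.8%). The list also holds Spry2, an FGF signalling inhibitor gene and not a transcription factor gene, with 9 of the 115. Zfp608 had 6 and 14 hypoacetylated members, Sall3 3 and 8, and Tle4, a corepressor gene, 2 and 8. Sox2, a stem cell and astroglial factor gene, had 2 and 6, and both SN members overlapped hypoacetylated motor cortex members. Id1 was an exception, with 4 hyperacetylated motor cortex members. Wnt and FGF signalling genes had 21 hypoacetylated members and no other in the SN, of which 12 were the Dact2 block, and 45 against 12 in the motor cortex (78.9%). Without crowded windows the motor cortex share was 71.4%, near the 65.9% of all members counted so, and the SN count was 9. Spry2 had 9 of the hypoacetylated motor cortex members, Tle4 8, Ctnnd2 6 and Dusp6 6, while Axin2, a Wnt feedback gene, had 3 hyperacetylated members. Spry2, Tle4 and Tcf7l2 are also in the developmental list, so their members are counted in both. Dusp6 is also in the early response list and Tle4 in the neuronal list. Ribosomal RNA genes had 50 hypoacetylated SN members and none in the motor cortex, and chemosensory receptor genes had 20 hypoacetylated members in each region, beside 5 hyperacetylated ones in the motor cortex.

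Among cell type markers, vascular genes had mostly hyperacetylated and glial genes mostly hypoacetylated motor cortex members. Endothelial and pericyte genes had 19 hyperacetylated and 1 hypoacetylated member in the motor cortex and no member in the SN. They lay at 8 of the list's 22 genes, including Cldn5 (7), Foxq1 (4), Slc2a1, the glucose transporter of the blood-brain barrier (3), and Sox17 (2). Without Cldn5 there were 12 against 1. The other annotation classes gave 19 hyperacetylated and 0 hypoacetylated motor cortex peaks at genes of this list. Astrocyte genes had 34 hypoacetylated and 4 hyperacetylated motor cortex members (89.5%), and 5 against 2 in the SN. The hypoacetylated motor cortex ones included Gja1 (6), Cst3 (6), Id4 (6), Glul (6) and Slc1a3, a glutamate transporter (5). The hyperacetylated ones lay at Glul (2), Sox9 (1) and Gfap (1), and Gfap had no hypoacetylated member. Microglia and macrophage genes had 34 against 8 in the motor cortex (81.0%) and 5 against 6 in the SN (45.5%). Without Sall1 the SN count was 2 against 6, and the other annotation classes gave 0 hypoacetylated and 8 hyperacetylated SN peaks at genes of this list. In the motor cortex the count was 24 against 8 without Sall1, and the same without crowded windows. Both counts lie nearer the hypoacetylated share of all motor cortex members (67.9%, and 65.9% without crowded windows). The other annotation classes gave 13 hypoacetylated and 3 hyperacetylated motor cortex peaks at genes of this list. Cd180, which encodes a relative of Toll-like receptors, had 2 SN and 4 motor cortex hyperacetylated members, and 3 hypoacetylated ones in the motor cortex. Sall1, which keeps microglial identity, had 3 SN and 10 motor cortex hypoacetylated members, Selplg 2 and 4, and P2ry12 and Cx3cr1, markers of resting microglia, had 4 and 3 in the motor cortex. Capg had 2 SN and 1 motor cortex hyperacetylated members, and Lgals3, a gene of activated microglia, had 1 in each. Sall1, Id4, Sox9, Hes5 and Nfia are also in the developmental list, and Glul is in the glucocorticoid list.

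Neuronal genes had 60 hypoacetylated and 20 hyperacetylated members in the motor cortex and 6 hypoacetylated members in the SN. Celf2 supplied 38 of the 60, and without it the motor cortex share was 52.4%. Hyperacetylated neuronal members stood at Uchl1 (9), Chgb (3) and Grik4 (3), and hypoacetylated ones at Tle4 (8) and Ntm (6). With Celf2, Kcnma1 and Rbfox1, these genes gave all 6 SN members and most motor cortex members of the list. Of the other markers, Gad2 had 2 hyperacetylated and 1 hypoacetylated motor cortex member. Rbfox3, Calb1 and Slc17a6 had 1 hyperacetylated member each there, and Snap25, Slc32a1 and Fezf2 1 hypoacetylated member each. The lean of the list therefore describes a few genes, and not neuronal markers at large. Oligodendrocyte genes had few members, 4 against 1 in the SN and 9 against 1 in the motor cortex. Members assigned to microRNA genes were 16 hyperacetylated and 12 hypoacetylated in the SN (42.9% hypoacetylated), with Mir29b1 giving 7 of the 16, and 21 against 86 in the motor cortex (80.4%).

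Of the 239 list genes with a member, 66 had members in both regions. In 27 of these all members were hypoacetylated, and in 15 all were hyperacetylated. The former include Zfp608, Sall1, Selplg, Sox2, Tle4, Fgfr2 and Olig2, and the latter Socs3, Nfkbia, Myc, Ddit4, Gadd45g, Litaf and Pim1. In 5 genes the direction was single but opposite, with Atf3, Ier5, Nfkb1 and Mir153 hyperacetylated in the SN and hypoacetylated in the motor cortex, and Il6 the reverse. Only Ier5 had overlapping members of opposite direction. At Atf3, Nfkb1, Mir153 and Il6 the members were different sites that share a nearest gene. The other 19 had both directions in at least 1 region.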

How the data were processed

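H3K27ac ChIP-seq of rat SN and motor cortex was used. Per the labels, the authors used Trim Galore 0.6.7 for trimming, Bowtie2 2.4.4 for alignment (genome mRatBN7.2), Picard 2.6.0 for duplicates and MACS2 2.2.7.1 for peaks, called on reads pooled by region. The deposited lists hold positions only, with no counts, scores or values per rat. Direction, annotation and nearest gene came from the study's published lists of called peaks, read from a text copy in which some gene names were misread, so counts per gene are lower bounds. Their fold changes, p-values and distances were not used. Of 11318 rows, 11317 matched a listed peak. The remaining one, with its start after its end, was left out.

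Overlaps (at least 1 bp), clusters (gaps up to 50 kb) and windows (2 Mb, at least 10 members) were computed with Python 3.11.15, pandas 2.3.3 and numpy 2.4.6, and Wilson intervals with scipy 1.17.1. The functions were tested on simulated data. Named were the 8 genes with the most members per set (ties up to 10), the 3 widest members and 3 largest clusters per set, list genes with members in both regions and pairs of opposite direction. Hs3st1, Ust, and list genes with members in a single region were chosen after their values were seen. Members, gene lists and alternatives were chosen with earlier results of these data known. No genome of mRatBN7.2 was used here, so peak sequences and motifs were not analysed.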

Additional observations from a re-analysis of the deposited data

How the results depend on the processing

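The lists are pooled over rats, so leaving out a rat or a library was not possible, and no interval here covers differences between animals. No paired analysis was possible because the pooled lists carry no value per rat. Across the alternatives run, 62 values stayed within the interval (for counts, within 1.5 times) of the reported value and 34 did not.

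The order of the overlap shares (hyperacetylated above hypoacetylated, within each region) held in each setting run. The SN hypoacetylated share was the one that moved upwards most, from 68.0% to 83.7% with members within 50 kb counted once and to 83.4% without the crowded windows. A reciprocal overlap of 50% gave 67.9% and 55.1% in the SN and 44.4% and 33.6% in the motor cortex (hyperacetylated first). Keeping only peaks of 1000 bp or wider in both lists gave 81.1% for hyperacetylated SN members and 60.7% and 47.0% in the motor cortex. Peaks up to 1 kb apart gave 68.6% and 52.6% in the motor cortex, and counting neighbours once gave 54.2% for its hypoacetylated members.

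Distal shares of the hypoacetylated sets were 53.1% (SN) and 57.8% (motor cortex) with neighbours counted once, and 53.5% and 60.3% without windows holding 10 or more called peaks. Members that overlap the other region had median widths of 2024, 1580 and 1889 bp (SN hypoacetylated, motor cortex hyperacetylated and hypoacetylated). With 1 Mb windows, crowded motor cortex members numbered 82 hyperacetylated and 240 hypoacetylated. The share with no listed peak within 5 kb was 27.5%, 33.6%, 29.6% and 33.3%, and within 20 kb 6.23%, 17.5%, 9.41% and 14.3%, in the order SN hyperacetylated, SN hypoacetylated, motor cortex hyperacetylated and hypoacetylated. Same-direction pairs numbered 276 with reciprocal overlap, 385 with a distal partner and 339 without crowded windows. Overlap shares without crowded windows, and the gene lists without their leading gene or without crowded windows, were chosen after seeing the data. Without the leading gene, the hypoacetylated share of the cytokine list in the SN was 10.0%, that of the motor cortex glucocorticoid list 14.3% and that of the SN astrocyte list 100%. The neuronal share of the motor cortex was 62.1% without crowded windows.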
